A study of Saccharomyces cerevisiae with 6 samples.

Results

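The genes described here encode the proteins of the small subunit of the cytosolic ribosome of budding yeast, and are called RPS genes. They were taken from the table of raw counts as every gene whose R64 symbol is RPS followed by a number, with or without A or B, which gave 56 of the 6461 genes of the table. The 56 genes encode 32 proteins, 8 of them from a single gene (among them RPS2, RPS3, RPS12, RPS13, RPS15, RPS20 and RPS31) and 24 from a pair of paralogs named A and B. The rule uses names only, so no measured value chose a member.

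Total RNA was measured by 3′-Tag-seq (QuantSeq), which reads the 3′ ends of polyadenylated RNA, in 6 libraries. Cells that had grown at 25°C received the same volume of warm medium and were kept at 37°C for 2 h (2 biological replicates, 37°C), and were set against cells grown at 30°C (2 replicates) and at 25°C (2 replicates). All 6 came from YPD cultures of 1 strain in the BY4741/2 background with the genotype CBP80-PPX-PrA, SNAPf-YRA1, which tags Cbp80 of the nuclear cap-binding complex and the mRNA export adaptor Yra1 in every group, so no untagged strain is in the comparison. The 37°C cells differ from the others in dilution and medium change as well as in temperature, and these cannot be told apart. In a bulk sample, less RNA per cell and fewer cells with that RNA cannot be told apart either.

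The libraries held 184456 to 1006632 counts in genes. The lowest total was that of the first 25°C library, in which 14.1% of the reads in the table mapped to more than 1 place, against 7.81% to 8.58% in the others. Its RPS genes stood apart too, so comparisons with 25°C are given with and without it where it moves them most. The a-cell gene STE2 was at 22 to 273 counts and the alpha-cell gene STE3 at 0 to 5, and URA3, which the strain background lacks, had 0 counts in all 6 libraries. Not every marker looked at followed this pattern. The alpha-cell gene SAG1 was at 12 to 43 counts and HIS3, another marker gene of the background, at 3 to 124.

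The small subunit binds mRNA, scans it for the start codon and holds the decoding centre. Its proteins are needed in equal numbers, 1 copy of each per ribosome, and in yeast their genes, together with those of the large subunit, are switched on in growing cells by Rap1, Fhl1, Ifh1 and Sfp1 and are known for their repression under stress. Most exist as paralog pairs left by an ancient duplication of the genome, and many contain an intron, which is rare in other yeast genes. In these samples 36 of the 56 genes had 2 exons, with introns of 256 to 551 bases, and coding lengths ran from 171 to 786 bases.

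All 56 annotated genes hold coding sequence and intron only, with no untranslated region, so the counts are of reads that reach into the coding part of a gene. Paralogs lose reads that match both copies, and how many depends on the sequence. Identity between the coding sequences of a pair ran from 84.3% (RPS27) to 99.2% (RPS6), with a median of 92.7%. All 50-base windows of the coding sequence occurred once in the genome in 26 genes, among them the 8 single-copy genes. In 6 genes fewer than 60% of them did, among them RPS6A and RPS6B at 27.5% and RPS4A and RPS4B at 52.3%. The last 90 coding bases of 4 pairs are printed here (R64, coding strand) because this is the part of a gene that a 3′ tag reaches first, with the bases that differ between the copies in capitals.
RPS18A, chrIV:1360709-1360798, plus strand: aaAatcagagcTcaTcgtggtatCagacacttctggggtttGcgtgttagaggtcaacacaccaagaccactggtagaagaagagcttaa
RPS18B, chrXIII:222987-223076, minus strand: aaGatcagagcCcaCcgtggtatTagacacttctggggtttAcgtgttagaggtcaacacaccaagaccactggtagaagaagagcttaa
RPS26A, chrVII:148229-148318, minus strand: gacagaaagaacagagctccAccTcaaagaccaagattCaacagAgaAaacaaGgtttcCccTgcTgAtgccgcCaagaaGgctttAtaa
RPS26B, chrV:424222-424311, plus strand: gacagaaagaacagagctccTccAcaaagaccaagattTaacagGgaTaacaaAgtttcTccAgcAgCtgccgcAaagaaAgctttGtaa
RPS6A, chrXVI:377291-377380, minus strand: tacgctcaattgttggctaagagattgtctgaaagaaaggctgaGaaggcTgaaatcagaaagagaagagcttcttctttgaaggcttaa
RPS6B, chrII:591712-591801, minus strand: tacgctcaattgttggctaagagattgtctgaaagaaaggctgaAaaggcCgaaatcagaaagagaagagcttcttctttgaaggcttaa
RPS19A, chrXV:92026-92115, minus strand: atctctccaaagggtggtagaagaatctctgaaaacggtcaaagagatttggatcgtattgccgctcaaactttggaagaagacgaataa
RPS19B, chrXIV:61958-62047, minus strand: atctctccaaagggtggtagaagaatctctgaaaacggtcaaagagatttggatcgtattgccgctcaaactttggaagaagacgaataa

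RPS26A and RPS26B differ at 13 of these 90 bases, RPS18A and RPS18B at 5, and RPS6A and RPS6B at 2. RPS19A and RPS19B do not differ here at all. Reads that lie inside such a stretch map to both copies and count for neither, so levels of RPS6 and RPS19 genes are less certain than those of RPS26 or RPS18. RPS22B holds the small nucleolar RNA gene SNR44 in its intron, and it was the only one of the 56 to overlap another annotated gene.

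In the 25°C libraries 3.50% and 6.68% of gene counts fell in RPS genes, in the 30°C libraries 8.75% and 4.84%, and in the 37°C libraries 4.40% and 4.73%. The 37°C replicates lay close together, while those at 25°C and at 30°C differed by more than 3 percentage points each. The share averaged 4.57% ± 0.23 at 37°C, against 5.09% ± 2.25 at 25°C and 6.80% ± 2.76 at 30°C (SD, n = 2 each). In a 2-sided exact permutation test the difference at 37°C had p = 1 against 25°C and p = 0.333 against 30°C, which is the smallest p that 2 against 2 libraries allow, and 30°C against 25°C had p = 0.667 (adjusted p = 1 for each over 6 tests). Without the first 25°C library the 37°C mean was 2.11 percentage points below the remaining 25°C library. Without the first 30°C library it was 0.27 points below the remaining 30°C library, with no test in either case. The binomial 95% interval of the first 25°C library ran from 3.42% to 3.59% (Clopper-Pearson), and such intervals cover counting error only.

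**Figure D1:**
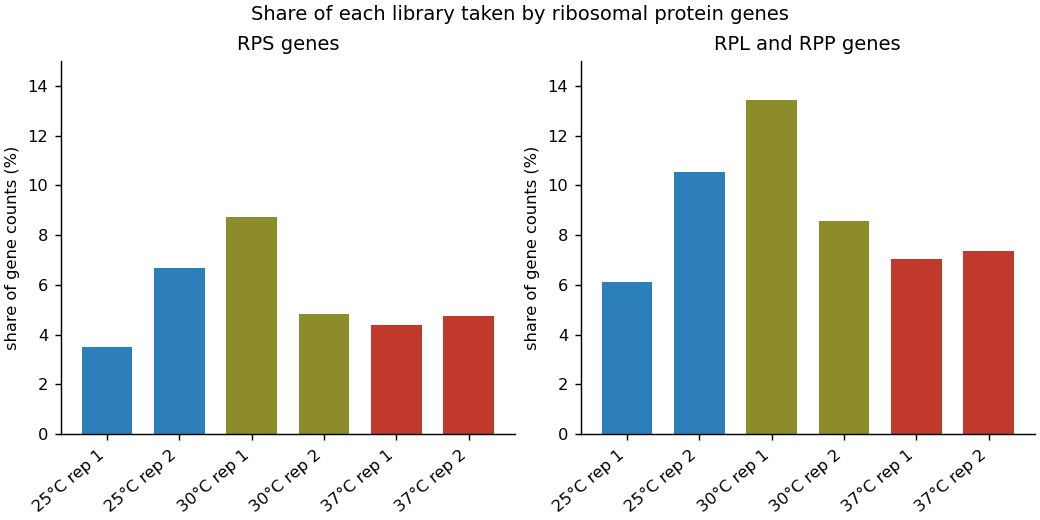
Share of gene counts (%) in each of the 6 libraries for the 56 RPS genes (left) and the 81 genes of the large subunit and stalk (right), each bar 1 library. Both groups are highest in the first 30°C library (8.75% and 13.4%) and lowest in the first 25°C library (3.50% and 6.12%), and the 37°C replicates sit close together in both.

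The genes of the large subunit (RPL and the stalk genes RPP, 81 genes) followed the same order from library to library, at 6.12% to 13.4% of gene counts. RPS over RPL counts gave ratios of 0.573 and 0.634 for 25°C, 0.652 and 0.564 for 30°C, and 0.627 and 0.642 for 37°C. It averaged 0.634 ± 0.011 at 37°C, against 0.603 ± 0.043 at 25°C and 0.608 ± 0.062 at 30°C (SD, n = 2 each), a difference of 0.031 from 25°C (exact permutation p = 0.667) and of 0.026 from 30°C (p = 1). The spread between replicates at 25°C and 30°C was larger than either difference.

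Levels are given as CPM, a gene's count divided by the library's counts and scaled to a common total with TMM factors. Values per kilobase of coding length stand beside them, and genes are ranked by CPM. Copies summed, the 32 proteins averaged 138 to 4203 CPM over the 6 libraries, with a median of 1589 CPM. The highest single genes by mean CPM were RPS31, which encodes a fusion of ubiquitin and a ribosomal protein of the beak (3929 CPM, 8560 CPM per kilobase), RPS9B (2909 CPM, 4948 per kilobase) and RPS2 (2730 CPM, 3568 per kilobase). The lowest were RPS27A (39.8 CPM, 160 per kilobase), RPS28B (43.7 CPM, 214 per kilobase) and RPS9A (74.2 CPM, 125 per kilobase). RPS28B had 0 counts in the first 25°C library, where 3 counts are 17.6 CPM, and 52.1 CPM in the second. These levels are of counted coding reads and not of transcripts, since a gene whose tags fall beyond the stop codon is undercounted. Counts of 3′ tags need not grow with coding length, so values per kilobase can favour short genes.

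The first 25°C library was not evenly low in RPS genes. Against the second 25°C library 41 of the 56 genes were lower and 15 were higher, with log2 ratios down to −4.39 (RPS28B) and a median of −1.28. Over all 5181 genes tested the median of this ratio was −0.12, and over the RPL genes it was −1.70. In the 37°C pair the ratios of the RPS genes ran from −0.77 to 1.59 with a median of −0.07. In the 30°C pair 52 of 56 were higher in the first library, with a median of 1.16 and 34 genes above 1.

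**Figure D2:**
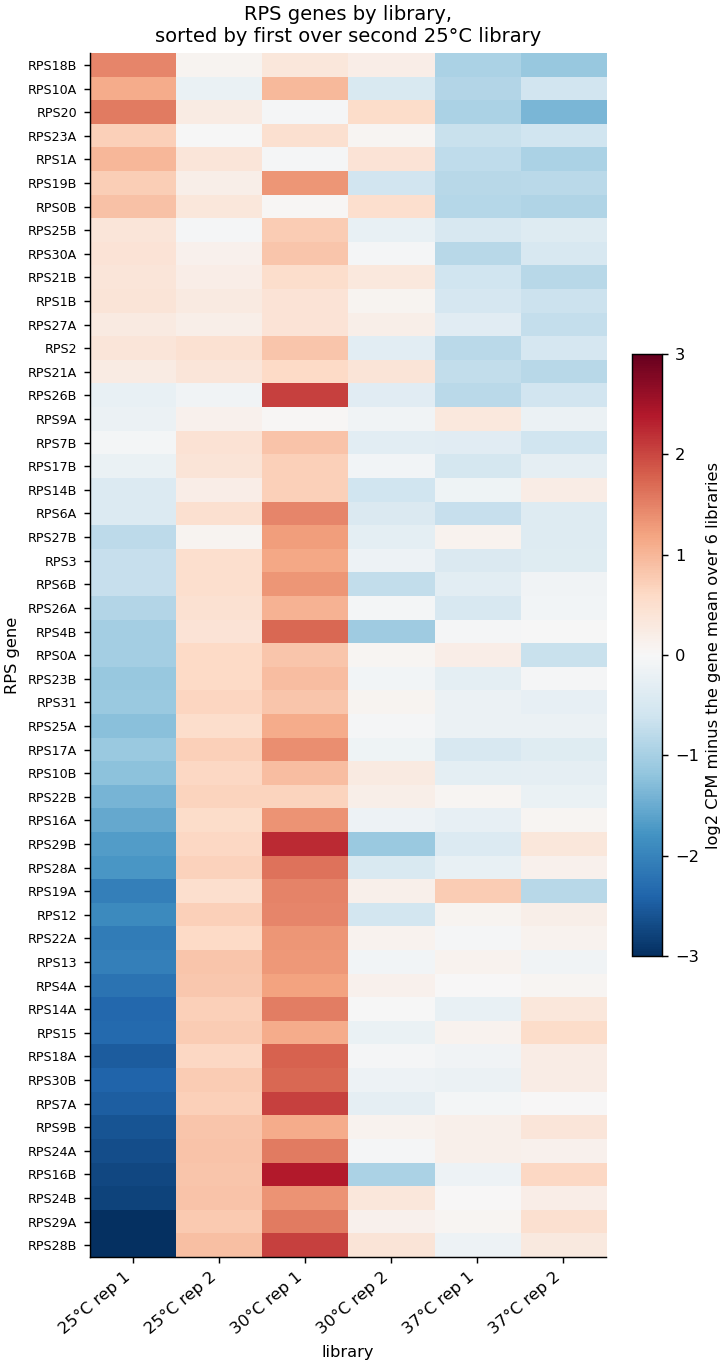
Log2 CPM of 51 RPS genes (rows) in the 6 libraries (columns) minus the mean of that gene, sorted from the highest to the lowest ratio of the first over the second 25°C library. The first 25°C library splits the genes, RPS18B at the top and RPS28B at the bottom, and the 12 genes at the top had both 37°C libraries below the other 4.

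The 15 genes that were higher in the first 25°C library included RPS0B, RPS1A, RPS1B, RPS10A, RPS18B, RPS19B, RPS20, RPS21B, RPS23A, RPS25B, RPS27A and RPS30A. In the 30°C pair, which did not sort them, their median log2 ratio of first over second library was 0.25, against 1.34 for the other 41 genes. Across the 56 genes the 25°C ratio and the 30°C ratio had a Spearman rho of −0.57, a description across genes that share libraries and normalization. Introns did not mark the split, with 9 of 15 genes having an intron and 27 of 41. The rank order of the RPS genes within a library had a Spearman rho of 0.45 to 0.74 between the first 25°C library and each of the others, and of 0.84 to 0.98 among the other 5.

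**Figure D3:**
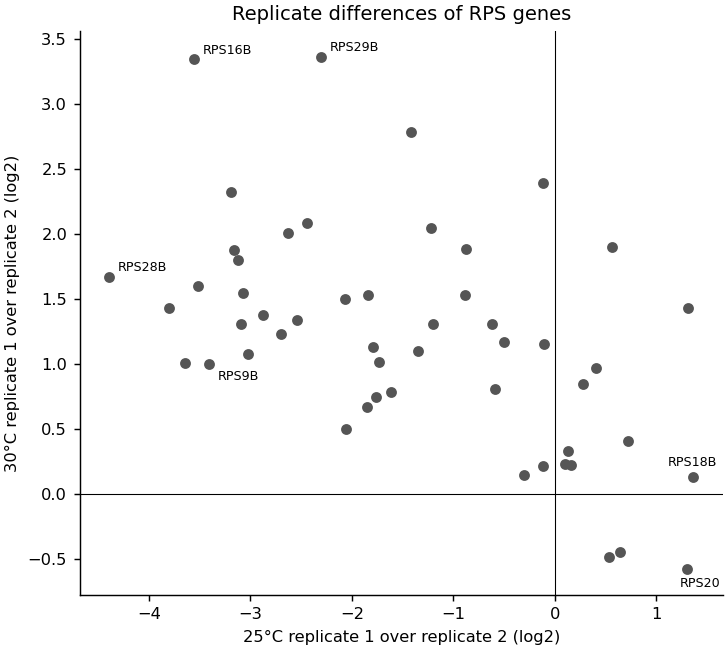
Log2 ratio of replicate 1 over replicate 2 at 25°C (x axis) and at 30°C (y axis) for 51 RPS genes, each point 1 gene. Genes that were far lower in the first 25°C library were higher in the first 30°C library, while of the genes at the right RPS20 (−0.58) and RPS18B (0.13) were near 0 or below on the y axis and RPS10A (1.43) was not.

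The comparison of 37°C with 25°C and with 30°C asks how the transcriptome differs in cells moved to 37°C, dilution and medium change included. All 56 RPS genes passed the filter on low counts. A gene was called where edgeR's quasi-likelihood test gave an adjusted p under 0.05 together with a fold change beyond 1 on the log2 scale, up or down. By this rule 0 of 56 RPS genes were called at 37°C against 25°C, 0 of 56 at 37°C against 30°C, and 0 of 56 at 30°C against 25°C. The background was 0% of 5181 genes in each. Without the second 25°C library 8 RPS genes were called at 37°C against 25°C, 6 lower (RPS20, RPS18B, RPS0B and RPS1A among them) and 2 higher (RPS9B and RPS24B), with the first 25°C library as the lone 25°C sample. In that fit 3.02% of 5326 genes were called lower and 3.81% higher. At an unadjusted p below 0.05, 10 of 56 RPS genes (17.9%) were lower at 37°C than at 25°C, where 6.02% of all genes tested were, and 12 of 56 (21.4%) were lower at 37°C than at 30°C, where 2.41% of all genes were. No RPS gene was higher in either comparison at that p, where 7.53% of all genes were higher at 37°C than at 25°C and 4.65% higher than at 30°C. Between 30°C and 25°C 0 of 56 reached that p, lower (0.309% of all genes) or higher (1.1%). Of 81 RPL genes 17 were lower at 37°C than at 25°C at that p, and 12 lower than at 30°C. No RPL gene was higher in either.

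The median log2 fold change of the RPS genes was −0.24 at 37°C against 25°C (35 of 56 below 0) and −0.89 at 37°C against 30°C (55 of 56 below 0), beside 0.09 and −0.01 over all genes tested and −0.18 and −0.90 over the RPL genes. At 30°C against 25°C it was 0.64, with 44 of 56 above 0, and this was 0.14 without the first 25°C library, 1.52 without the second and −0.18 without the first 30°C library. Without the first 25°C library the median at 37°C against 25°C was −0.78 with 56 of 56 below 0, and without the second it was 0.61. With all 6 libraries its sign also rests on the method, at 0.03 with limma-voom and 0.00 with library totals in place of TMM factors. Without the first 30°C library the median against 30°C was −0.21. The 95% interval of the log2 fold change reached 1 or −1 in 55 of 56 genes in both comparisons with 37°C, so these libraries leave changes of that size within the error of nearly every gene.

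**Figure D4:**
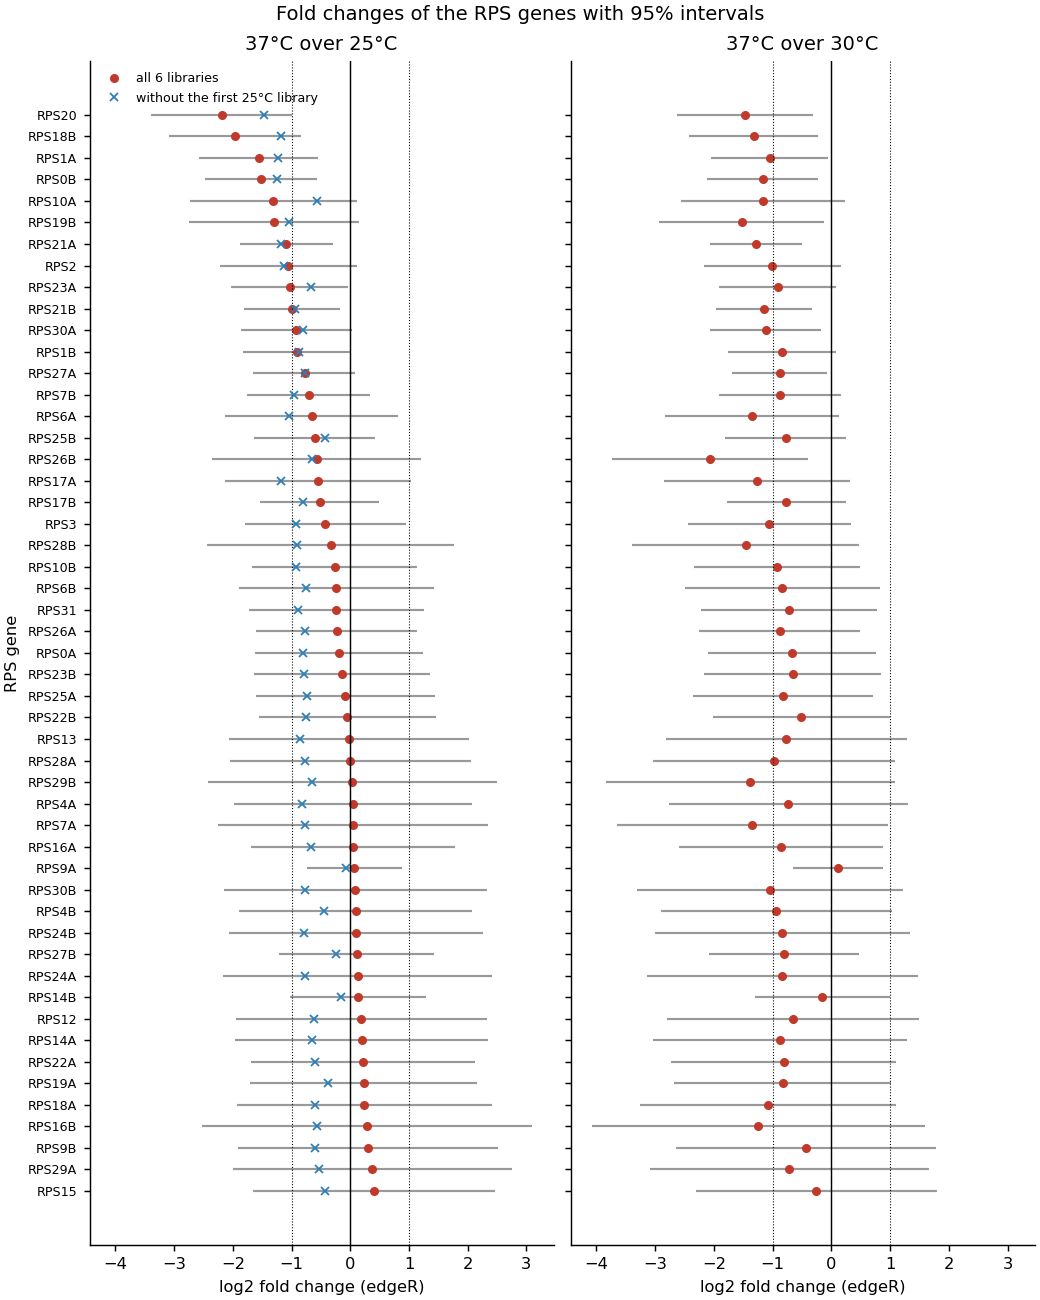
Log2 fold change of 51 RPS genes at 37°C over 25°C (left) and 37°C over 30°C (right) from edgeR, with 95% intervals as lines, all 6 libraries as circles and, on the left, the value without the first 25°C library as crosses. Against 25°C the circles spread from −2.19 (RPS20) to 0.40 (RPS15), while all 51 crosses lie below 0.

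In 20 of 56 RPS genes (35.7%) both 37°C libraries lay below all 4 libraries of 25°C and 30°C, where 12.3% of all genes tested did. Against the 25°C libraries alone the count was also 20 of 56 (23.2% of all genes), and against the 30°C libraries alone 32 of 56 (57.1%, against 20.2% of all genes). Of these 20, both copies of 3 pairs, RPS1 and RPS21 among them, were included, 12 pairs had 1 copy among them, and RPS2 and RPS20 were the single-copy genes. The first 25°C library was above the second in 15 of the 20. With copies summed, 10 of 32 proteins had both 37°C libraries below the other 4, among them those of RPS0, RPS1, RPS2, RPS10, RPS18, RPS20, RPS21 and RPS23. The shares over all genes are for single genes, so this count has none beside it.

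Single-copy genes are free of the loss to paralogs. RPS20, whose protein lies in the head and is ubiquitylated at stalled ribosomes, had the smallest p at 37°C against 25°C. It was at 329 and 131 CPM at 25°C, 107 and 161 CPM at 30°C, and 55.4 and 41.3 CPM at 37°C. Both 37°C libraries lay below the other 4. The log2 fold change was −2.19 (SE 0.51, 95% interval −3.39 to −0.99) against 25°C, with an adjusted p of 0.203, and −1.47 (SE 0.49) against 30°C, with an adjusted p of 0.619 (edgeR). Without the first 25°C library the value against 25°C was −1.47.

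RPS2, whose protein lines the mRNA entry channel, was at 3222 and 3461 CPM at 25°C, 4467 and 2009 CPM at 30°C, and 1444 and 1774 CPM at 37°C. Its log2 fold change was −1.05 (SE 0.50) at 37°C against 25°C (adjusted p = 0.394, edgeR) and −1.01 (SE 0.49) against 30°C (adjusted p = 0.756), the second of which was −0.35 without the first 30°C library. RPS2 was the single-copy gene with the least difference between the 25°C replicates. RPS3, of the mRNA entry channel, was at 841 and 1929 CPM at 25°C, 3067 and 1236 CPM at 30°C, and 1011 and 1060 CPM at 37°C. The first 25°C library of RPS3 lay below both 37°C libraries and the second above them.

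RPS12, RPS13, RPS15 and RPS31 showed the split at 25°C most plainly among the single-copy genes. RPS12, of the beak, was at 523 and 3248 CPM at 25°C, 5435 and 1351 CPM at 30°C, and 2082 and 2230 CPM at 37°C. RPS13 was at 329 and 2428 CPM at 25°C, 3377 and 1296 CPM at 30°C, and 1480 and 1262 CPM at 37°C. RPS15, whose protein reaches toward the decoding site from the head, was at 106 and 924 CPM at 25°C, 1190 and 480 CPM at 30°C, and 588 and 807 CPM at 37°C. In these 3 genes the 37°C libraries lay between the 25°C replicates, and the log2 fold changes against 25°C were 0.19 (SE 0.91), −0.02 (SE 0.87) and 0.40 (SE 0.87). Without the first 25°C library they were −0.62, −0.86 and −0.44. RPS31 was at 1652 and 5607 CPM at 25°C, 6356 and 3786 CPM at 30°C, and 3173 and 3001 CPM at 37°C, below both 30°C libraries and between those at 25°C.

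Among the paired genes, RPS18B, RPS0B and RPS1A were among the 6 RPS genes with the smallest p at 37°C against 25°C. RPS0 proteins lie on the outer side of the body, and RPS21 proteins bind them. RPS0B was at 2193 and 1516 CPM at 25°C, 1217 and 1705 CPM at 30°C, and 662 and 637 CPM at 37°C, a log2 fold change of −1.51 (SE 0.40, and −1.26 without the first 25°C library) against 25°C and −1.17 (SE 0.40) against 30°C. RPS21A, the gene with the smallest p against 30°C, was at 811 and 877 CPM at 25°C, 1039 and 896 CPM at 30°C, and 408 and 387 CPM at 37°C. RPS21A is one of the few RPS genes whose 25°C and 30°C replicates lay close together. Its log2 fold change was −1.09 (SE 0.33) against 25°C and −1.28 (SE 0.33, 95% interval −2.07 to −0.49) against 30°C, with adjusted p of 0.288 and 0.448 (edgeR). RPS21B, with all of its windows unique as in RPS21A, was at 1070 and 959 CPM at 25°C, 1211 and 1039 CPM at 30°C, and 553 and 469 CPM at 37°C, with log2 fold changes of −0.99 (SE 0.35) and −1.14 (SE 0.35).

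RPS1 proteins lie on the platform, and RPS1A was at 3133 and 2006 CPM at 25°C, 1524 and 2082 CPM at 30°C, and 927 and 811 CPM at 37°C, with log2 fold changes of −1.56 (SE 0.43, and −1.24 without the first 25°C library) against 25°C and −1.05 (SE 0.42) against 30°C. RPS18B, of the head, was at 600 and 231 CPM at 25°C, 273 and 249 CPM at 30°C, and 111 and 97.5 CPM at 37°C. Its first 25°C library was well above the second, and the log2 fold change against 25°C of −1.96 (SE 0.48) was −1.18 without it.

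DESeq2 as an alternative called 6 of the 47 RPS genes to which it gave an adjusted p (12.8%) lower at 37°C than at 25°C, against 3.29% of 1156 genes with such a value. Among them were RPS0B and RPS1A (adjusted p = 0.0219 each, DESeq2) and RPS18B (0.0263). All 6 are among the 15 genes that were higher in the first 25°C library than in the second. These calls did not hold without that library, which left a single library at 25°C. Of the 73 RPL genes with an adjusted p DESeq2 called 8 lower at 37°C than at 25°C with all libraries. Against 30°C it called 0 of 56 with all libraries, where 0.207% of 5320 genes were called higher and 0.0752% lower. Without the first 25°C library it called 2 of 56 lower at 37°C than at 30°C, RPS21A (adjusted p = 0.0486) among them, where 0.195% of 6146 genes were called lower and 0.277% higher.

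RPS26B and RPS27B had 2 of the 3 smallest p at 30°C against 25°C, and both rest on the first 30°C library. RPS26B was at 293 and 53.8 CPM at 30°C, against 58.8 and 63.9 CPM at 25°C, and at 38.4 and 45.0 CPM at 37°C. Its log2 fold change of 1.49 (SE 0.73, adjusted p = 0.888, edgeR) at 30°C against 25°C was −0.21 without the first 30°C library, and that of −2.06 (SE 0.71) at 37°C against 30°C was −0.39 without it. RPS27B was at 394 and 135 CPM at 30°C, against 94.1 and 175 CPM at 25°C.

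Divided by the part of the subunit, 22 genes encode proteins of the head and 34 encode proteins of the body and platform, a division made with the values known. The head genes had a median log2 fold change of −0.25 at 37°C against 25°C and −1.01 against 30°C, and the body and platform genes −0.23 and −0.87. Leaving out the first 25°C library gave medians against 25°C of −0.75 for the head and −0.78 for the rest, and without the first 30°C library those against 30°C were −0.21 and −0.22. With limma-voom on all 6 libraries the medians against 25°C were 0.15 and 0.00. Both 37°C libraries lay below the other 4 in 6 of 22 head genes and in 14 of 34 body and platform genes, where 12.3% of all genes tested did. Of these 20 genes 15 were higher in the first 25°C library than in the second. Of the RPS counts, head genes made up 25.2% and 36.2% in the 25°C libraries, 40.2% and 32.2% in the 30°C libraries, and 36.6% and 38.2% in the 37°C libraries, with the first 25°C library the lowest.

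The 36 genes with an intron had a median log2 fold change of −0.17 at 37°C against 25°C and −0.87 against 30°C, and the 20 without one −0.38 and −0.95. Against 25°C the medians without the first 25°C library were −0.77 with an intron and −0.83 without one, and with limma-voom on all 6 libraries 0.05 and −0.08. Without the first 30°C library the medians against 30°C were −0.13 and −0.27. Of the RPS counts, genes with an intron made up 44.6% and 51.0% in the 25°C libraries, 52.1% and 51.1% in the 30°C libraries, and 52.6% and 52.4% in the 37°C libraries. Apart from the first 25°C library the share was 51.0% to 52.6%.

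The relation of paralogs A and B was given as the share of A in the counts of A plus B. In all 24 pairs A and B together had at least 20 counts in every library, and at least 50 in 18. Over the pooled libraries A had the larger count in 13 pairs and B in 11. Leaving out the first 25°C library, the same copy led in all 5 libraries in 21 of 24 pairs, and the share of a pair moved over a median range of 12.8 points, from 1.95 to 28.3. With the first 25°C library the same copy led throughout in 12 of 24.

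**Figure D5:**
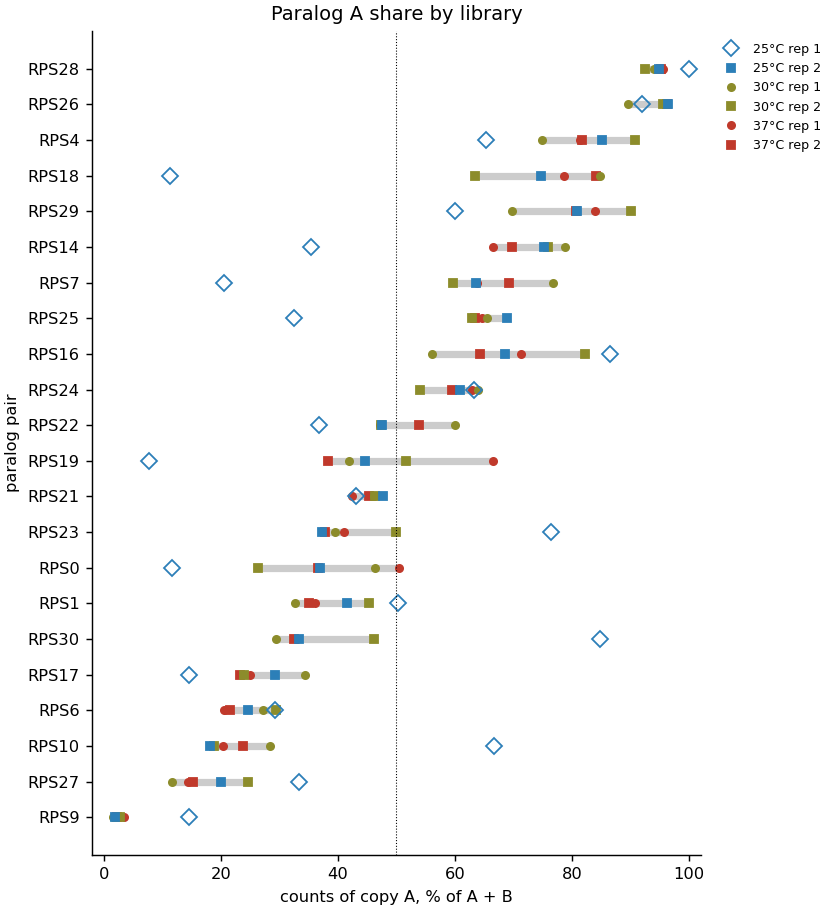
Share of copy A in the counts of A plus B (%) for 22 pairs, with 1 point per library and a grey bar from the lowest to the highest of the 5 libraries other than the first at 25°C (open diamonds). The diamonds fall outside the bar in 18 of these 22 pairs, farthest in RPS18, while RPS6, RPS21, RPS24 and RPS26 are the 4 pairs with the diamond inside.

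The first 25°C library lay outside the range of the other 5 in 20 of 24 pairs, by more than 10 points in 12, and in 10 the other copy was the larger one. The RPS18 pair was the farthest: RPS18A had 11.3% of the pair in that library (13 of 115 counts, 95% interval 6.2% to 18.6%, Clopper-Pearson), against 63.5% to 84.8% in the other 5. RPS30A had 84.7%, against 29.5% to 46.1%. RPS10A had 66.7%, against 18.0% to 28.4%. RPS19A had 7.7% from 3 of 39 counts. The RPS18 copies printed above differ at 5 of the last 90 coding bases and 98.0% of their 50-base windows are unique. All 5 differences lie before the middle of that stretch, and the bases nearest the stop codon are the same in both copies. Whether reads lost to both copies shape this share was not tested.

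In 3 of the pairs with the most uneven shares A led in every library. RPS28A held 92.5% to 100% of its pair, RPS26A 89.7% to 96.4% and RPS4A 65.3% to 90.9%. The RPS4 copies differ at 1 of the last 90 coding bases and 52.3% of their 50-base windows are unique, so the RPS4 share is less certain. RPS26 proteins line the mRNA exit channel. At the other end RPS9A, which is known to be held down through its intron by its own protein in yeast, held 1.5% to 3.4% in 5 libraries and 14.5% in the first 25°C library, where RPS9B was at 382 CPM and at 4094 CPM in the second. RPS9A itself stayed within 64.7 to 91.7 CPM in all 6. RPS27A held 11.6% to 33.3% in all 6. RPS10A held 18.0% to 28.4% in 5 libraries, and in the first 25°C library, at 66.7%, it was the larger copy. By pooled counts the most even pairs were RPS22 (A at 52.3%), RPS19 (45.9%) and RPS21 (45.8%). Of these RPS21 kept to 42.5% to 47.8% in all 6 libraries, while RPS19 ran from 7.7% to 66.5%.

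Between temperatures the A share differed by a median of 11.1 points at 37°C against 25°C, 3.34 points at 37°C against 30°C and 9.01 points at 30°C against 25°C, taken without sign over the 24 pairs. Without the first 25°C library the first was 3.60 points and the third 2.18 points. Replicates of 1 temperature differed by a median of 18.8 points at 25°C, 10.4 points at 30°C and 2.25 points at 37°C. The median differences between temperatures were smaller than that between replicates at 25°C, and no pair could pass a 2-sided exact permutation test, whose smallest p is 0.333 with 2 libraries a group. Copies with fold changes of opposite sign that lay more than 1 apart at 37°C against 25°C were found in the pairs RPS18 (A 0.24, B −1.96), RPS19 (0.23 and −1.29) and RPS30 (A −0.92, B 0.09), and at 30°C against 25°C in RPS18 (1.32 and −0.64, and 0.53 and 0.19 without the first 25°C library). The sign was the same in both copies of these 3 pairs at 37°C against 25°C without the first 25°C library, at −0.59 and −1.18 in RPS18, −0.38 and −1.05 in RPS19, and −0.81 and −0.77 in RPS30.

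Rap1 binds upstream of most ribosomal protein genes. In the 500 bases before the start codon the letters ACCCNTACA, searched on both strands as 1 form of its site, occurred in 12 of 56 RPS genes (21.4%) and 22 of 81 RPL genes (27.2%), against 1.79% of 5989 nuclear coding genes. A match is a string of letters and not a measured site, and other forms of the site were not searched. The matches of 3 genes described above are printed with 8 bases on either side (R64), the match in capitals, as written on the strand that carries it.
RPS2, chrVII:277229-277237: taagctagACCCATACAcccgctct
RPS21B, chrX:157607-157615: gtgtttacACCCGTACActttatac
RPS10A, chrXV:866758-866766: ggtgtaacACCCATACAaacccaga

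RPS genes with a match had a median log2 fold change of −0.47 at 37°C against 25°C and −1.10 against 30°C, and the 44 without one −0.23 and −0.87. The medians against 25°C were, without the first 25°C library, −0.80 with a match and −0.77 without one, and without the first 30°C library those against 30°C were −0.12 and −0.25.

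Genes that act on the RPS genes or proteins were taken from lists made with earlier results of these data known. Of 13 regulators of ribosomal protein gene transcription 0 were called in the 3 comparisons. CRF1, a corepressor of these genes, had the smallest p, at 85.3 and 37.5 CPM at 37°C, against 5.88 and 15.4 CPM at 25°C and 16.9 and 32.6 CPM at 30°C, a log2 fold change of 2.21 (SE 0.66) against 25°C with an adjusted p of 0.279 (edgeR). In the first 25°C library 3 counts are 17.6 CPM, so the CRF1 value there rests on fewer reads than that. The highest value of the 13 regulators against 25°C was 1.95 without this library. RRP7, next by p, had −1.28 (SE 0.39), and −0.81 without the first 25°C library. Of 12 chaperones and late assembly factors 0 were called, and the smallest p was that of TSR2, the chaperone of Rps26, at 133 and 99.4 CPM at 37°C, against 359 and 225 CPM at 25°C and 177 and 212 CPM at 30°C (log2 fold change −1.30 against 25°C, SE 0.36, adjusted p = 0.251). The lowest value of these 12 against 25°C was −0.98 without the first 25°C library. ENP1, an assembly factor of the small subunit, had −0.83 (SE 0.42), and −0.32 without the first 25°C library.

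Of 8 enzymes that modify RPS proteins 0 were called. YPK3, the kinase that phosphorylates Rps6, was at 30.9 and 26.3 CPM at 37°C, against 80.1 and 46.7 CPM at 30°C and 47.0 and 48.5 CPM at 25°C, a log2 fold change of −1.16 (SE 0.38) against 30°C. The 30°C replicates of YPK3 lay far apart, and the second was near the 25°C libraries. Against 25°C the lowest value of the 8 enzymes was −0.75. TAE1 had 1.07 (SE 0.56) against 25°C. Of 10 proteins that bind the small subunit 0 were called, with a median log2 fold change of −0.83 at 37°C against 25°C and 8 of 10 below 0. TIF11, the initiation factor that places the scanning subunit, had −1.14 (SE 0.39) and PRT1, a subunit of initiation factor eIF3, −0.83 (SE 0.31). Without the first 25°C library the median of the 10 was −0.62 and their lowest value −0.77. Among the 81 large-subunit genes edgeR called 0, and RPL21A (−1.76, SE 0.46) and RPL15A (−1.31, SE 0.34) had the smallest p at 37°C against 25°C. Without the first 25°C library the lowest value of the 81 against 25°C was −1.31.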

How the data were processed

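Reads of 3′-Tag-seq libraries of total RNA were mapped to R64 by the authors and the deposited counts are whole reads per annotated gene. In the submitters' processing notes stand STAR 2.7.10a, HTSeq 2.0.2, DESeq2 1.38.2 and UMI-tools 1.0.1. The sources used here do not give the strand setting or say whether duplicates were removed for total RNA. The deposited normalized signal is each count divided by a size factor per library, and 100% of its values came back as whole reads equal to the counts within 0.001, so a count test on them repeats the test on the counts (0 genes called). The 5 summary entries were left out of library sizes and tests.

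Of 6461 identifiers 6458 were matched to R64. After filterByExpr, 5181 genes were tested with edgeR 4.0.16 (quasi-likelihood, TMM, all 6 libraries, temperature as the factor, Benjamini-Hochberg adjustment). Calls required a fold change beyond 1 (log2) and an adjusted p under 0.05. Standard errors are the fitted coefficient over the square root of F. The test was run on simulated counts first. Results on some RPS genes are not reported here, and these genes are left out of the plots by gene. Members, gene lists, tests and the rule for named genes were chosen with earlier results of these data known. That rule took the single-copy genes, the RPS genes with the smallest p in each comparison, those called by edgeR or DESeq2, the highest and lowest by CPM, the most and least uneven pairs, pairs with copies of opposite sign, and up to 2 genes per list. The labels call the replicates biological and do not say how they were grown, so p-values measure the spread between these samples.

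Alternatives were DESeq2 1.42.0, limma-voom (limma 3.58.1), other normalizations and filters, fits of 2 temperatures, a replicate block and each library left out. The numbers of replicates did not pair the samples (correlation of deviations −0.53 for 25°C and 30°C, 0.28 for 25°C and 37°C, −0.40 for 30°C and 37°C). Scripts ran in Python 3.11.15 (Biopython 1.88, matplotlib 3.10.9, pandas 2.3.3, pyfaidx 0.9.0.4, scipy 1.17.1, numpy 2.4.6) and R 4.3.3.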

Additional observations from a re-analysis of the deposited data

How the results depend on the processing

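The count of called RPS genes was 0 in each comparison under edgeR with other factors, other filters, 2 temperatures only or an adjusted p alone, and under limma-voom. At 37°C against 25°C it was 6 (all lower) with DESeq2, and leaving out 1 library in edgeR gave 0 to 8, the 8 (2 higher, RPS9B and RPS24B, named after their values were seen, and 6 lower) without the second 25°C library, where 203 genes of all were called higher and 161 lower. At 37°C against 30°C it was 2 with DESeq2 without the first 25°C library, an alternative chosen after seeing the data, and 0 with each library left out of edgeR. With a replicate block it was 0 in each comparison, with RPS medians of −0.21 and −0.93 for 37°C over 25°C and over 30°C, and 0.62 for 30°C over 25°C. With the 30°C numbers crossed, also chosen after seeing the data, the calls were 0 and the medians −0.02, −0.70 and 0.62.

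Leaving out 1 library moved the RPS median over −0.78 to 0.61 at 37°C against 25°C, −1.33 to −0.21 at 37°C against 30°C, and −0.18 to 1.52 at 30°C against 25°C. Scaled to the summed RPS counts the median at 37°C against 30°C was −0.049, by construction near 0. Library totals in place of TMM moved the median of all genes to 0.33 and 0.23, and the RPS medians to 0.00 and −0.63, at 37°C against 25°C and 30°C. A temperature left with 1 library was taken to vary like the others. The cause of the differences between libraries was not tested. Of 527 values of named genes under an alternative 483 moved by less than the spread of replicates without a change of call, 30 moved by more, 14 passed the thresholds and 0 called values changed sign, while 29 uncalled values did. The depth of the first 25°C library, with 25 of 56 RPS genes under 50 counts, limits every value at 25°C.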
